A study of Mus musculus with 30 samples.

Results

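Small RNA of whole kidney was compared between Ftsj1-deficient (Ftsj1_DF) and wild-type (WT) male mice aged 4 months, with 3 libraries of each genotype, and all 2194 named features of the kidney table were taken as members. The series holds 30 libraries from 5 organs of the same mice, of which 6 are kidney. Each genotype has 2 mice from one set of brothers and 1 from another, and the mice received no special treatment. The labels do not give the strain or the kind of allele, and the table holds no row for Ftsj1 itself, so the genotype could not be checked in these values. The kidney was pulverised whole, so the RNA comes from tubule, glomerulus, vessel, stroma and blood together, and fewer cells of a type cannot be told apart from less RNA per cell. One WT kidney library belongs to a second sequencing batch, run on other lanes after an earlier run had given too few reads. Batch and genotype cannot be told apart for that library.

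The Ftsj1 enzyme methylates the ribose of certain transfer RNAs in their anticodon loop. MicroRNAs are cut from hairpin precursors, and the bases 2 to 8 of the mature strand, the seed, pair with target mRNAs, so microRNAs with one seed form a family. In kidney, miR-30 and the miR-10 pair are abundant in tubular epithelium, miR-192 and miR-194 mark epithelia of kidney, liver and gut, and miR-143 and miR-145 belong to smooth muscle. The let-7 family is abundant in differentiated tissue and represses growth genes.

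The features are counted per precursor, and the table does not separate the arms of a hairpin. The mature strands that the results turn on are shown first, as RefSeq gives them for GRCm38.p6, with the arm that is usually the dominant one and with the seed in capitals. The first set is the let-7 family with miR-98, which shares 1 seed and differs in the bases that follow it.
let-7a-5p: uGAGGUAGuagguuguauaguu
let-7b-5p: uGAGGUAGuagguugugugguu
let-7c-5p: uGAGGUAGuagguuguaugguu
let-7d-5p: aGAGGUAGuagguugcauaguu
let-7f-5p: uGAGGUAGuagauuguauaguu
let-7g-5p: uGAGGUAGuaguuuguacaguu
let-7i-5p: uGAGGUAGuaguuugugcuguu
miR-98-5p: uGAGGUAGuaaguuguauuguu

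The microRNAs that lie beside let-7 in the genome are shown because they carry other seeds. The miR-125 pair has one and the miR-99 group another.
miR-125a-5p: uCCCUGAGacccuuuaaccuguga
miR-125b-5p: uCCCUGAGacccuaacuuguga
miR-99a-5p: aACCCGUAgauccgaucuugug
miR-100-5p: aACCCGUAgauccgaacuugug

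The last set holds abundant kidney microRNAs and strands of precursors with a low p, most of them beside a strand of the same seed. The miR-10 pair differs at 1 base outside the seed, miR-215 has the seed of miR-192, miR-141 that of miR-200a, and miR-181d that of miR-181a.
miR-10a-5p: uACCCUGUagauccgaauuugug
miR-10b-5p: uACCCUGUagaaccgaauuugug
miR-30a-5p: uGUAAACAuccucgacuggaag
miR-192-5p: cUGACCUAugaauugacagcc
miR-215-5p: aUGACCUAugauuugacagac
miR-141-3p: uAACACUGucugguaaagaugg
miR-200a-3p: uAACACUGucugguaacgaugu
miR-802-5p: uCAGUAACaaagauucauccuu
miR-181a-5p: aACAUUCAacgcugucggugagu
miR-181d-5p: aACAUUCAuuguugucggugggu

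The authors' deposited table gives 1 mean over the 6 libraries and 1 fold change per feature, and does not say which genotype is the numerator. A fold change is therefore given by its sign alone, and its 3 numerator libraries form the positive side, with the remaining 3 as the negative side. For 918 of the 1025 features with a mean above 0 the whole reads of each of the 6 libraries could be recovered. They came from the deposited mean, fold change and standard error, up to a mean of 5789. The libraries are called P1 to P3 on the positive side and N1 to N3 on the negative side, and they could not be tied to single mice or to a batch. The features that were not split, which include all let-7, miR-30, miR-10 and miR-125 precursors with counts, hold 99.1% of the summed means, so no value per library can be given for them.

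Library N2 stood apart from the other 5. Over 161 features with whole reads and a mean of at least 100, its log2 values had a Pearson correlation of 0.71 to 0.77 with the other libraries, against 0.91 to 0.97 among those 5. N2 lay more than 2-fold from the median of the others in 69 of the 161 features, 33 above and 36 below, whereas each of the others did so in 0 to 14. It was the highest library for 65 features and the lowest for 65. The SD of its log2 deviation was 1.53, against 0.35 to 0.56 in the others. The size factors, which measure relative depth, ran from 0.69 in P3 to 1.33 in P1, and N2 at 1.02 lay within that range. Side ratios from recovered reads are given below with and without N2, and for the features that could not be split the part of N2 was not tested.

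**Figure D1:**
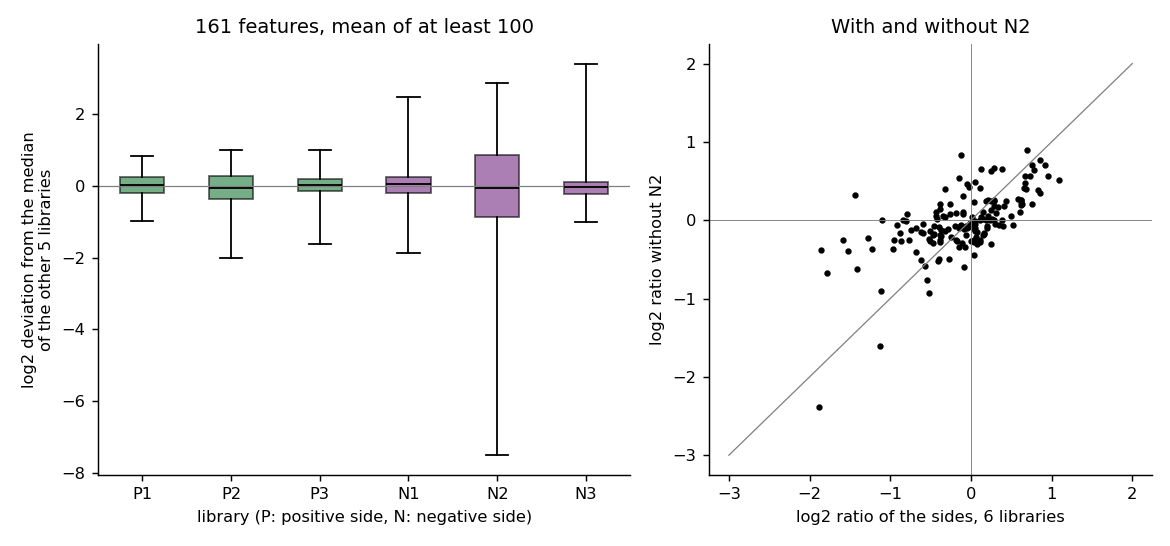
Left, log2 deviation of each library (x axis) from the median of the other 5 over 161 features (boxes: quartiles, whiskers: full range). Right, each feature's log2 ratio of positive to negative side with 6 libraries (x axis) and without N2 (y axis). The N2 box is the widest, and most points below -1 on the x axis move towards 0 on the y axis.

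The kidney profile was led by few precursors. In the authors' deposited table Mir143, of smooth muscle, held 21.1% of the summed means, and Mir30a held 10.9%. Mir21a, a microRNA of injured and fibrotic tissue among others, followed with 6.85% in the authors' deposited table. Mir10a and Mir10b, which lie within the Hox gene clusters, held 6.38% and 4.36% in the authors' deposited table. Together 6 precursors made up more than 50% of the total, and 20 made up 79.9%. Precursors with microRNA symbols held 99.3% and provisional genes with Gm symbols 0.44% of it. Of the 2194 named features 1025 had a mean above 0, and their means summed to 21787131 normalized counts.

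The label was checked against its markers. Mir10a, Mir10b and Mir30a together held 21.6% of the kidney total, against 2.42% to 7.03% in the other 4 organs in the authors' deposited tables. The miR-10 and miR-196 precursors of the Hox clusters held 10.9% in kidney and at most 0.994% elsewhere in the authors' deposited tables. The miR-30 family held 18.4% in kidney and 4.98% to 13.8% in the other organs in the authors' deposited tables. The epithelial miR-200 family held 3.19% in kidney and 0.028% to 1.82% in the others in the authors' deposited tables. Precursors miR-192, miR-194 and miR-215 held 2.61% in kidney, below the 7.58% of liver in the authors' deposited tables. The tables were normalized separately, so these shares describe each organ and were not tested.

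Marker lists of other cell types held small shares, as far as their members were counted. Striated muscle precursors held 0.00838% of the kidney total and Mir122 of hepatocytes 0.0207%, in the authors' deposited table. Leukocyte precursors held 0.0508% and neuron precursors 0.112% in the authors' deposited table, and Mir142, Mir451a and Mir9-1 were listed at 0. A listed 0 cannot be read as absence, since Mir24-1, Mir30e and Mirlet7f-1 of abundant families were also at 0 and Mir9-2, Mir9-3, Mir142b and Mir144 had counts in the authors' deposited table. The leukocyte share therefore lacks Mir142. The leukocyte members that could be split summed to 15964 normalized counts in N2 and to 9467 to 11682 in the other libraries. The striated muscle members summed to 842 in N2 and to 1805 to 2256 in the others. The Dlk1-Dio3 members, an imprinted cluster expressed in brain, summed to 3380 in N2 and to 5677 to 11412 in the others. Mir124a-3, a copy of the neuronal microRNA miR-124, stood at 192, 181 and 227 normalized counts in P1 to P3, 170 in N1, 0 in N2 and 111 in N3. Its copies Mir124a-2 and Mir124a-1 also had 0 reads in N2 and 11.5 to 114 normalized counts in the others. The neuron members that could be split, these copies among them, summed to 1607 in N2 and to 1307 to 1778 in the others. The part of these markers in the results below was not tested.

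**Figure D2:**
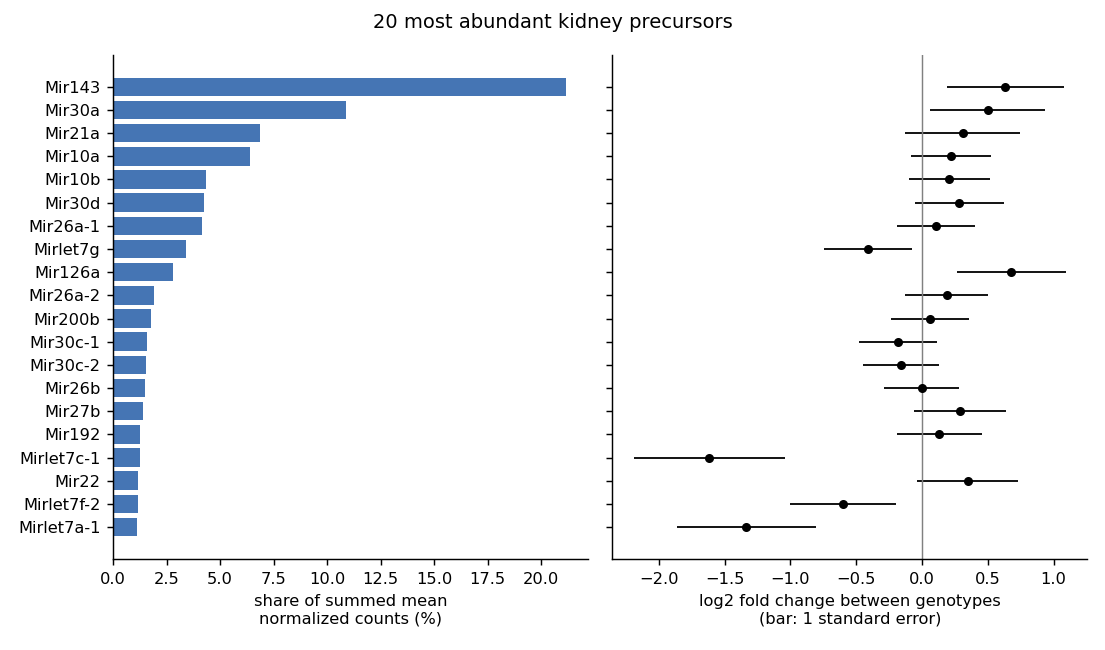
Left, share of the summed mean normalized counts (%) of the 20 most abundant kidney precursors. Right, their log2 fold change between genotypes with 1 SE. Mir143 holds 21.1%, and the let-7 precursors are the only ones of the 20 below -0.25.

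The study's design sets the genotypes against each other within the organ. In the authors' deposited table DESeq2 called 0 of 1022 features (0.00%) at a threshold of 0.05 after adjustment, and the lowest adjusted value was 0.331. Before adjustment 46 features had p under 0.05 (4.50%), of which 12 were positive (1.17%) and 34 negative (3.33%). Limma on the recovered reads of 325 features with a mean of at least 10 also called 0, with a smallest adjusted p of 0.791, and gave 10 an unadjusted p under 0.05. That number was 4 without P1 and without P2, 6 without P3, 30 without N1, 17 without N3 and 11 without N2. Scaling the sides to equal totals shifts every fold change by -0.19 on the log2 scale and gives 5 positive and 54 negative features at an unadjusted p under 0.05.

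Precision set what could be seen. Among the 268 features with a mean of at least 100 the median standard error (SE) of the log2 fold change was 0.40, and 99 had a 95% interval of the log2 fold change that lay within 1 of 0. The same median was 0.31 in brain, 0.26 in heart, 0.27 in spleen and 0.41 in liver. Their median log2 fold change was 0.02, with 138 positive and 130 negative, and 22 of the 266 with a p had one under 0.05 before adjustment (8.27%).

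By abundance, most features with a low p were negative in each class that held any, except from 1000 to 10000. Among 280 features with a mean under 1 none had an unadjusted p under 0.05. There were 12 among 313 with a mean of 1 to 10, 4 positive and 8 negative. Of those with a mean of 10 to 100 there were 12 among 163 with a p, 3 positive and 9 negative. From 100 to 1000 there were 8 among 94, and 7 of these were negative. From 1000 to 10000 there were 6 among 86, and here 4 were positive. Above a mean of 10000 the authors' deposited table holds 87 features, of which 8 had an unadjusted p under 0.05, all negative. They are 5 let-7 and 3 miR-125 precursors. The 4 most abundant features, Mir143, Mir30a, Mir21a and Mir10a, all had a positive fold change between 0.22 and 0.63 in the authors' deposited table, and none had an unadjusted p under 0.05. After scaling to equal totals they lie 0.19 lower and stay positive.

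**Figure D3:**
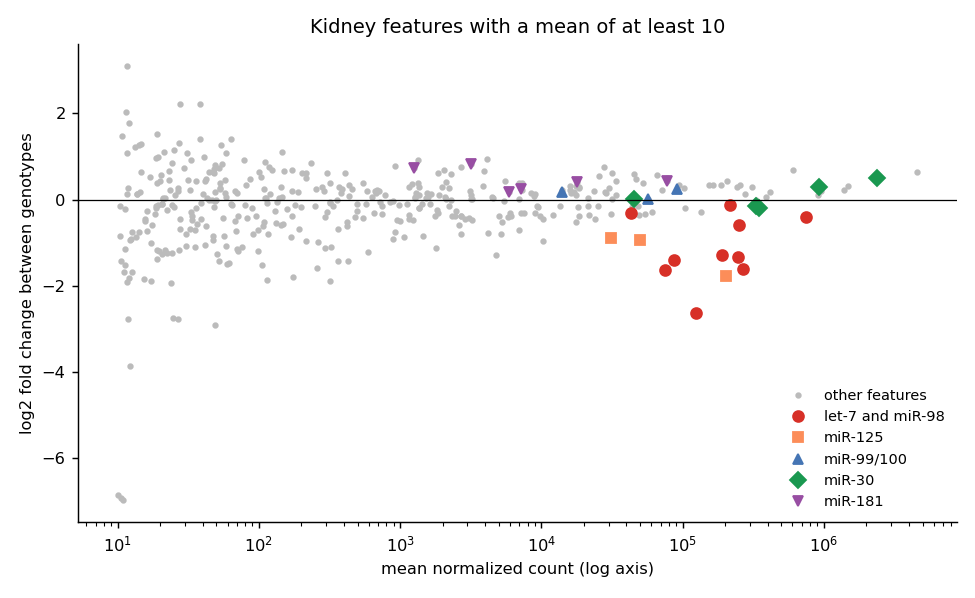
Log2 fold change between genotypes against the mean normalized count (log axis) for features with a mean of at least 10, with 5 families marked. The let-7 and miR-125 precursors lie below 0 at means over 10000. Some of them lie more than 1 below 0, and the rest lie within 1 of 0, as most other points there do.

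Within let-7, precursors whose strands differ after the seed had different values. Mirlet7a-1, Mirlet7a-2, Mirlet7b, Mirlet7c-1, Mirlet7c-2 and Mirlet7d give strands with UAGGU at bases 9 to 13, and their log2 fold changes ran from -2.62 to -1.28 in the authors' deposited table. The -2.62 is that of Mirlet7b (SE 1.16, given without a p), and the others ran from -1.63 to -1.28 in the authors' deposited table. Mirlet7f-2, with UAGAU there, stood at -0.60 (SE 0.40; authors' deposited table). Mirlet7g and Mirlet7i, with UAGUU, stood at -0.41 (SE 0.34) and -0.13 (SE 0.30; authors' deposited table). Mir98, with UAAGU, stood at -0.30 (SE 0.33; authors' deposited table). This grouping by sequence was chosen after the values were seen and has no test, and precursors of 1 mature strand can share reads.

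The mean and fold change in the authors' deposited table imply 132477 normalized counts of Mirlet7c-1 for the positive side, against 406102 for the negative one. For Mirlet7a-1 they imply 140824 and 355420, and for Mirlet7d 48066 and 126413, from the authors' deposited table. Mirlet7g, with the highest count of the family, comes to 638823 and 848940 from the authors' deposited table, with a 95% interval of -1.07 to 0.25 for its log2 fold change. Mirlet7b comes to 35014 and 215341 from the authors' deposited table, which gives it a statistic and no p. The table does not state why the p is withheld. The same holds for Mir8120 and for Mir7b, which had 1014 normalized counts in N1 and 81.4 to 188 in the others. The let-7 list held 10.3% of the kidney total. Mirlet7e and Mirlet7f-1 were listed at 0, and Mirlet7j and Mirlet7k were matched to no feature. Of the 10 measured members 5 had an unadjusted p under 0.05, all negative. The share over all features tested was 3.33% with a negative sign, and 8.27% with either sign at a mean of at least 100. These 5 precursors give the strands of let-7a, let-7c and let-7d only, and precursors of 1 strand can share reads. With 1 precursor kept per mature strand, the family median was -0.97, against -1.31 over precursors.

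The miR-125 family, the mammalian relative of lin-4, had negative values in all 3 precursors, and each had an unadjusted p under 0.05, against 3.33% of all features tested with a negative sign and 8.27% with either sign at a mean of at least 100. Mir125a stood at log2 -1.77 (SE 0.62, DESeq2 adjusted p 0.622; authors' deposited table), which implies 92748 normalized counts for the positive and 315797 for the negative side. Mir125b-2 and Mir125b-1 stood at -0.93 (SE 0.47) and -0.89 (SE 0.45; authors' deposited table), both with an adjusted p of 0.975. The upper ends of their 95% intervals, -0.02 and -0.01, lie close to 0. The family median of -0.93 compares with 0.04 over all features tested. Mir125b-1 and Mir125b-2 give 1 mature strand and can share reads, so they are not separate members. With 1 precursor kept per mature strand the median was -1.35.

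The miR-99 and miR-100 precursors lie at the same loci as let-7 and miR-125 and had values near or above 0. Mir99a stood at 0.24 (SE 0.35), beside Mirlet7c-1 at -1.62 (SE 0.57) and, farther along the locus, Mir125b-2 at -0.93, in the authors' deposited table. Mir100 stood at 0.17 (SE 0.31), beside Mirlet7a-2 at -1.28 (SE 0.53) and, farther along, Mir125b-1 at -0.89, in the authors' deposited table. Mir99b stood at 0.02 (SE 0.29), beside Mir125a at -1.77, in the authors' deposited table, and Mirlet7e of that cluster was listed at 0. After scaling to equal totals the miR-99 and miR-100 median of 0.17 becomes -0.02, so its sign depends on the scaling. The differences between cluster mates come from the same libraries and were not tested.

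**Figure D4:**
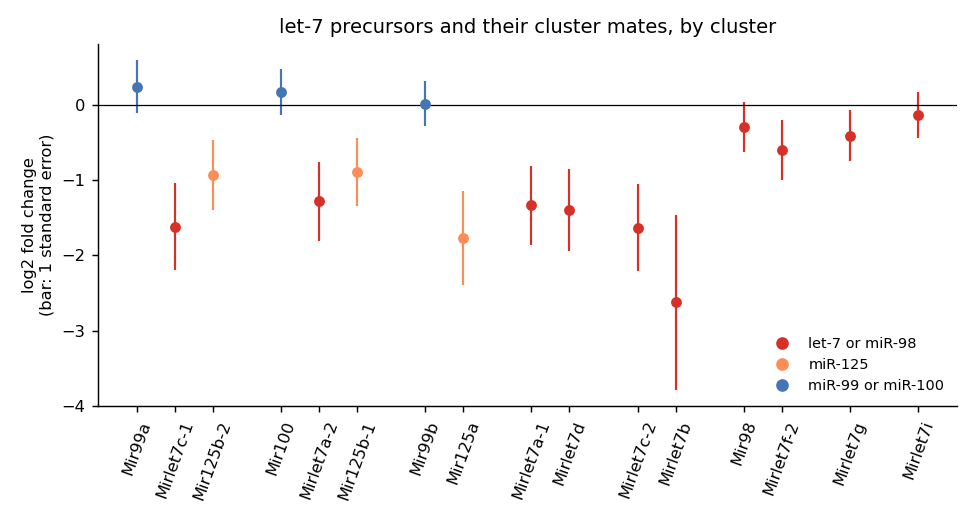
Log2 fold change with 1 SE (y axis) of let-7 precursors and their cluster mates, side by side by cluster (x axis). Mir99a, Mir100 and Mir99b lie at 0.02 to 0.24, while their let-7 and miR-125 mates lie at -0.89 to -1.77.

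With a position in RefSeq for 247 of the 268 features with a mean of at least 100, precursors that lie within 10 kb of each other formed 38 clusters of 100 features. The span of log2 fold changes within a cluster had a median of 0.41, and 20 of the 38 had 1 sign throughout. In 8 clusters it was over 1. These include the miR-99 clusters above, Mir194-1 with Mir215, Mir141 with Mir200c, and Mir34c with Mir34b. At the other end, Mir29a and Mir29b-1 differed by 0.01, and Mir181c and Mir181d by 0.10. The miR-17 cluster of 6, whose members promote proliferation, ran from -0.29 to 0.17 in the authors' deposited table.

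The miR-30 family ran from -0.18 for Mir30c-1 to 0.50 (SE 0.44) for Mir30a in the authors' deposited table, with 0 of 5 measured members at an unadjusted p under 0.05. Its median of 0.02 becomes -0.17 after scaling to equal totals. Mir10a and Mir10b stood at 0.22 and 0.21 (SE 0.31 each; authors' deposited table), and after that scaling lie 0.19 lower, near 0. Mir192, Mir194-1 and Mir194-2 stood at 0.13, 0.26 and 0.33 in the authors' deposited table, with SEs of 0.32 to 0.39. Mir204, which is expressed in tubular epithelium, stood at -0.38 (SE 0.33; authors' deposited table), and its recovered counts overlapped between the sides, at 1852 to 2858 in P1 to P3 and 2681 to 3557 in N1 to N3. Without N2 its log2 side ratio was -0.25.

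Mir141, of the miR-200 family, had 5344, 6429 and 4660 normalized counts in P1 to P3 and 3603, 1080 and 3827 in N1 to N3. The sides did not overlap, and N2 was the lowest library. Its log2 fold change was 0.95 (SE 0.46, DESeq2 adjusted p 0.975; authors' deposited table), and the side ratio was 0.56 on the log2 scale without N2. Mir200c, its cluster mate, stood at -0.35 (SE 0.40), and Mir200a, which shares its seed, at 0.43 (SE 0.41; authors' deposited table).

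Mir215 had 120, 183 and 104 normalized counts in P1 to P3 and 137, 73.6 and 1284 in N1 to N3. Only N3 was high, with 67.5% of all its counts. The log2 fold change was -1.88 (SE 0.79; authors' deposited table), and the side ratio turned to 0.36 without N3. Mir192, which shares its seed, stood at 0.13 as given above.

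Among microRNAs of vessel and stroma, Mir143 stood at 0.63 (SE 0.45) and Mir126a, the endothelial microRNA, at 0.68 (SE 0.41; authors' deposited table). Mir145a, which shares a transcript with Mir143, stood at -0.16 (SE 0.29; authors' deposited table). Mir21a stood at 0.31 (SE 0.43; authors' deposited table), with a 95% interval of -0.54 to 1.16. Mir214, a fibrosis-associated microRNA, had 2032, 1498 and 2686 normalized counts in P1 to P3 and 2194, 4765 and 2430 in N1 to N3, so that only N2 lay above the range of the positive side. Its log2 side ratio of -0.60 was -0.16 without N2. The miR-29 family, which represses collagen genes, had positive values in 4 of 4 precursors, with a median of 0.30 that becomes 0.11 after scaling to equal totals, and 0 had an unadjusted p under 0.05. Recovered counts of Mir29b-1 were 3968 to 4486 in P1 to P3, 3849 in N1, 4205 in N3 and 2334 in N2. Without N2 its log2 side ratio was 0.09.

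The miR-181 family, active in lymphocytes and other cells, had positive values in 6 of 6 precursors, from 0.17 to 0.83 in the authors' deposited table, and 1 of them had an unadjusted p under 0.05, where 8.27% of all features with a mean of at least 100 did. The median of 0.41 becomes 0.22 after scaling to equal totals. Its lowest library was N2 in both members that could be split. Mir181d had 1444, 2027 and 1227 normalized counts in P1 to P3 and 1170, 706 and 950 in N1 to N3. The sides did not overlap, and its log2 fold change of 0.73 (SE 0.37; authors' deposited table) was 0.56 as a side ratio without N2. Mir181c had 3644, 4744 and 3776 normalized counts in P1 to P3 and 3249, 627 and 2955 in N1 to N3, and its log2 side ratio of 0.83 was 0.39 without N2. The most abundant member, Mir181a-1, stood at 0.42 (SE 0.35; authors' deposited table) and could not be split.

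The next families had no member at an unadjusted p under 0.05. The miR-148 and miR-152 precursors stood at 0.28 to 0.55, and the miR-103 and miR-107 precursors at -0.30 to -0.15, in the authors' deposited table. Mir221 and Mir222 stood at -0.16 and -0.45 (SEs 0.30 and 0.36) in the authors' deposited table. The 15 precursors of the miR-17/92 clusters had 6 positive and 9 negative values with a median of -0.09. The miR-26 and miR-101 precursors, which held 8.39% of the total, had 5 positive and 1 negative value with a median of 0.25, or 0.06 after scaling to equal totals. Mir210, induced by low oxygen, had 167 to 208 normalized counts in P1 to P3 and 149 to 300.4 in N1 to N3, with a log2 side ratio of -0.17, or -0.27 without N2.

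Of the 46 features with an unadjusted p under 0.05, 38 could be split into reads. Over all 325 split features with a mean of at least 10, the sides did not overlap in 38 (11.7%), 25 with the positive side higher (7.69%) and 13 with the negative side higher (4.00%). All 12 positive features at an unadjusted p under 0.05 were split, and in 10 the sides did not overlap. Of 26 negative features that were split, the sides did not overlap in 9, and N2 was the highest library in 21. In 18 of the 26, 1 library held more than 50% of the counts. Both sets were chosen by p from the same libraries, so a separation of the sides follows in part from that choice. Some of their members have a mean under 10, which the 325 do not include. Over all 161 features with a mean of at least 100, the side means differed more than 2-fold in 13, and in 2 without N2. The sign of the side ratio changed in 47 of the 161 without N2.

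Among the 9 negative features with a low p and a mean over 100 that were split, Mir874 had the smallest share of its counts in 1 library, 29.2%. The let-7 and miR-125 precursors were not split, so the same is not known for them. It had 1229, 693 and 1456 normalized counts in P1 to P3 and 2161, 3128 and 2051 in N1 to N3, so every negative-side library lay above every positive-side one. Its log2 fold change was -1.12 (SE 0.39, unadjusted p 0.00443, DESeq2 adjusted p 0.622; authors' deposited table). The side ratio was -0.90 on the log2 scale without N2. In limma its unadjusted p ran from 0.00781 to 0.0363 over the fit of all libraries and those that leave out 1.

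Mir802, a microRNA of liver and kidney epithelium, was the positive feature with the smallest p among those with a mean over 100. It had 1947, 1511 and 1806 normalized counts in P1 to P3 and 1097, 636 and 1051 in N1 to N3, without overlap. Its log2 fold change was 0.92 (SE 0.36, DESeq2 adjusted p 0.685; authors' deposited table), and the side ratio was 0.71 without N2. In limma its unadjusted p ran from 0.00633 to 0.0594. Mir190a, of the same list, overlapped between the sides, at 1810 to 3108 normalized counts in P1 to P3 and 1269 to 2489 in N1 to N3, with a log2 side ratio of 0.27, or 0.02 without N2.

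The provisional genes Gm56194 and Gm54453 also had sides without overlap. Gm56194 had 2763, 4128 and 3253 normalized counts in P1 to P3 and 1437, 1851 and 2716 in N1 to N3, and its log2 fold change was 0.76 (SE 0.37; authors' deposited table). Gm54453 had 861, 1493 and 1149 normalized counts in P1 to P3 and 659, 538 and 833 in N1 to N3, and its log2 fold change was 0.79 (SE 0.37; authors' deposited table). N1 was the lowest library for Gm56194 and N2 for Gm54453, and the side ratios without N2 were 0.70 and 0.65. Gm56125, at 88.8, 110 and 76.8 in P1 to P3 and 13.4, 33.4 and 58.6 in N1 to N3, had a side ratio of 1.39, or 1.35 without N2. The labels and the table do not say what these genes encode.

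**Figure D5:**
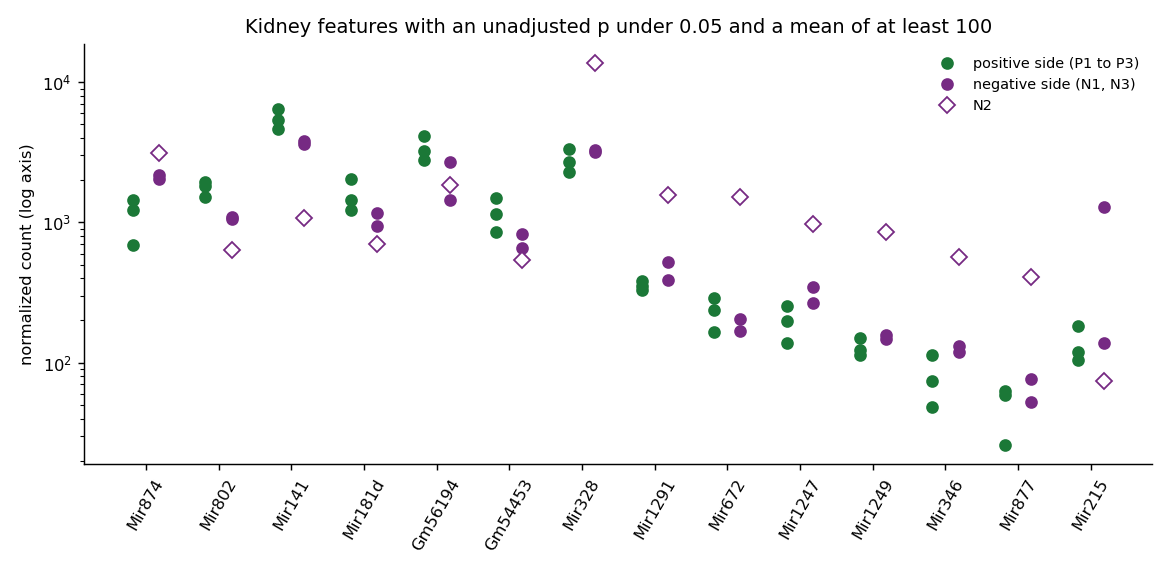
Normalized counts (log axis) in each library of the 14 features with an unadjusted p under 0.05, a mean of at least 100 and recovered reads (circles: 5 libraries, open diamonds: N2). N2 lies far above all other libraries for Mir328, Mir1291, Mir672, Mir1247, Mir1249, Mir346 and Mir877, and N3 does so for Mir215.

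Of the 9 negative features with a mean of at least 100 that were split, 8 were highest in N2. Mir328 had 2278, 2674 and 3346 normalized counts in P1 to P3 and 3177, 13674 and 3300 in N1 to N3. Its log2 side ratio of -1.28 became -0.23 without N2. Mir672 had 166, 291 and 239 in P1 to P3 and 168, 1507 and 204 in N1 to N3, and its ratio of -1.43 turned to 0.32. Mir1291 had 379, 329 and 352 in P1 to P3 and 519, 1569 and 390 in N1 to N3. Mir1249 had 114, 123 and 149 in P1 to P3 and 159, 855 and 148 in N1 to N3. N2 stood far above the rest in both, and the log2 side ratios without it were -0.36 and -0.25. The sides of Mir1291 did not overlap with or without N2, and those of Mir1249 overlapped.

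Mir346 had 74.5, 48.7 and 113 normalized counts in P1 to P3 and 132, 566 and 118 in N1 to N3. Mir1247 had 139, 254 and 198 in P1 to P3 and 345, 969 and 265 in N1 to N3. The sides of both also did not overlap with or without N2, with log2 side ratios of -0.67 and -0.63 in place of -1.79 and -1.41. Mir877, which is spliced from an intron, had 63.2, 58.9 and 26.1 in P1 to P3 and 76.2, 411 and 52.2 in N1 to N3. Its sides overlapped, and its log2 side ratio of -1.86 was -0.38 without N2.

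Strands of precursors that N2 held in excess are shown to compare their letters with miR-384-5p, which has the seed of miR-30a and whose precursor had 0 reads in N2. The counts are per precursor, so which arm gave the reads is not known.
miR-346-5p: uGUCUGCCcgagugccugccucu
miR-877-5p: gUAGAGGAgauggcgcaggg
miR-1249-3p: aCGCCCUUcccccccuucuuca
miR-1247-5p: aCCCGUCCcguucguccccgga
miR-672-5p: uGAGGUUGguguacuguguguga
miR-384-5p: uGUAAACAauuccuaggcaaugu

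The first 4 of these strands have a G and C content of 63.6% to 72.7%, miR-672-5p has 47.8% and miR-384-5p has 34.8%. Mir384 had 117 to 127 normalized counts in P1 to P3, 0 in N2 and at least 73.8 in N1 and N3. Across 119 microRNA features with a mean of at least 100, recovered reads and a RefSeq hairpin (83.2% of 143), the deviation of N2 from the other libraries had a Spearman rho of 0.40 with the G and C content of the hairpin. The same rho was -0.28 to 0.11 in the other 5 libraries. The median hairpin content was 57.1% in the 26 features that N2 held more than 2-fold above the others and 45.9% in the 26 more than 2-fold below. Their ranges overlapped widely, at 37.8% to 75.5% above and 32.5% to 68.3% below. For the log2 side ratio rho was -0.33, and -0.13 without N2. These are descriptions across features of the same libraries, and the part of base composition in the results was not tested.

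Features with a mean under 100 often rested on 1 library. Mir705 had all of its 67 reads in N2 and Mir7036 all of its 36, while Mir7089 had 30 of its reads there and 1 in N3. Gm54969 had 36 reads in N2, 2 in N3 and 1 in N1. In the positive direction Mir8097 had 10, 6 and 13 reads in P1 to P3 and 0 in N1 to N3, so its 3 libraries on that side all held reads. Of the 35 measured members of the Dlk1-Dio3 cluster 1, Mir496a, had an unadjusted p under 0.05, a share no higher than the 4.50% of all features tested. N1 and N2 held most of its reads. Mir217, a pancreatic microRNA, had 47.4, 106 and 34.8 normalized counts in P1 to P3 and 15.2, 0 and 25.5 in N1 to N3, and its log2 side ratio was 2.21, or 1.62 without N2. Mir375, also of pancreas and endocrine cells, overlapped, at 2544 to 2826 in P1 to P3 and 2664 to 4636 in N1 to N3, with a log2 side ratio of -0.47, or -0.29 without N2.

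The kidney fold changes were set against those of the other organs by a z-test of the difference, in both directions, adjusted over all features with a statistic in both. No feature differed at an adjusted p of 0.05 from brain, heart or spleen, with 27 of 829, 18 of 879 and 37 of 904 at an unadjusted p under 0.05. In liver 1 of 747 did, the low feature Mir3474. The tables do not state that the sign runs the same way in each organ, and the comparison takes it to. Against spleen, the difference was -2.24 on the log2 scale for Mirlet7c-2 (adjusted p of the z-test 0.308) and -2.15 for Mir125a (adjusted p 0.623). Negative values were also given elsewhere: Mirlet7c-2 stood at -0.74 in brain, -0.80 in heart and -0.18 in liver, and at 0.61 in spleen, in the authors' deposited tables. Mir125a stood at -0.66 in brain, -0.81 in heart, -0.98 in liver and 0.39 in spleen in the authors' deposited tables. Mirlet7a-1 stood at -0.75, -0.71, -0.26 and -0.04 in the same order in the authors' deposited tables. Mir874 stood at 0.03 in brain and in heart (SEs 0.28 and 0.33) in the authors' deposited tables. It stood at -0.33 (SE 0.53) in liver and at 0.44 (SE 0.59) in spleen in the authors' deposited tables. Its difference from kidney had an adjusted p of 0.996 to 0.999 in the z-tests against these organs. Mir802 stood at 0.80 (SE 0.40) in liver in the authors' deposited table. In brain, heart and spleen it stood at 0.49, 0.68 and 0.32 (SEs 0.60, 0.81 and 0.89; authors' deposited tables). The z treats the organs as independent, although the same mice gave all of them.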

How the data were processed

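RNA was extracted with phenol and made into libraries with the NEXTflex small RNA kit, per the labels' protocols. The authors counted reads with featureCounts (Subread 2.0.3) on GRCm39, and the authors compared genotypes with DESeq2, both from the submitters' processing notes. No source used here gives the aligner or the treatment of reads that match several precursors. The authors deposited, per the file headers, a mean normalized count (a signal averaged over 6 libraries, in counts over size factors). They also deposited a log2 fold change with its SE, a Wald statistic (a score), a p-value and an adjusted p-value. There is no value per sample, and the number of unused per-sample columns was 0. The row without a name held 1.9e-06% of the total and was left out.

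Size factors were found from 486 low means, and each mean was then split into whole reads. Reads were kept where exactly 1 set gave the mean and fold change to the deposited digits (fold change to 1e-12). The fold change was recomputed for each candidate set by the authors' DESeq2 model, written out for the 2 sides with no batch term. The spread between libraries in that model was set to return the deposited SE. The model served only to choose the reads and not as a test. The design foresaw this for low features only. The precision of a recovered value is that of its reads, and it covers counting error only. Limma 3.58.1 ran on log2 of the normalized count plus 1, with a trend, for features with a mean of at least 10. Steps were tested on simulated data. The threshold was a p of 0.05, with Benjamini-Hochberg adjustment. Each library is 1 mouse, and a p covers the spread between these 3 and 3 libraries.

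The members and the 36 lists were chosen with earlier results of these data known, and no list was tested. Named features are the 20 most abundant, up to 12 per sign with the smallest p at a mean of at least 10 and 6 below it, the members of lists at an unadjusted p under 0.05 or among the 3 most abundant, all members of shorter lists, let-7 cluster mates and features that differ between organs. Features named for library N2, sequence or overlap were chosen after their values were seen. RefSeq (GRCm38.p6) gave sequences and neighbours, and no coordinates are printed since the builds differ.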

Additional observations from a re-analysis of the deposited data

Results flagged for a closer look

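Mir3474 was flagged because its fold change differed between kidney and liver, with an adjusted p of 0.0299 in the z-test of the difference. Its log2 fold change was -5.90 (standard error 2.28) in kidney and 5.79 (standard error 1.71) in liver in the authors' deposited tables. In kidney it had 17, 11 and 4 reads in N1 to N3 and 0 in P1 to P3. With a mean of at least 10 asked for in both organs it was not tested. Single outlying samples were not tested in groups of 3 libraries. The liver and kidney tables do not state their numerators, so the opposite signs assume that both run the same way.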

How the results depend on the processing

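The count of called features stayed at 0 under each adjustment tried, with the features that lack a p taken in, and in limma with each library left out (0 to 0). The 46 features at an unadjusted p under 0.05 became 22 at a mean of at least 100, and limma's 10 became 4 to 30 with 1 library left out. The 33 split features among the 46 whose sides differed over 2-fold became 19 without the library of the highest count and 21 without N2. Mir672 turned to 0.32 without N2, its highest library, and Mir215 to 0.36 without N3. The marker share of 21.6% became 21.8% over microRNA symbols and 27.4% without Mir143. Both scalings lower every fold change, so the negative let-7 and miR-125 medians could not change sign under them. The 1 feature that differed from liver became 0 at a mean of at least 10 in both organs. Of 94 other settings of list medians, 93 moved by less than the list's median standard error. The scalings lower every list median by 0.02 or 0.19, which is less than each of these standard errors. Those settings therefore had to be among the 93. For miR-34 and miR-449 the median of -0.42 became 0.12 at a mean of at least 10. The cause was not tested. The limma fits and the values without N2 were chosen after seeing the data. No paired analysis was possible because the table names no library, so that neither mice nor sets of brothers could be assigned to the recovered reads.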
